A study of Mus musculus with 6 samples.

Results

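The genes described here are 41 genes of DNA replication and S phase, chosen by name for their known roles. They were read in LSK cells of mouse bone marrow, the lineage-negative fraction with Sca-1 and c-Kit on its surface that holds the hematopoietic stem and progenitor cells. The probe table names at least 1 probe set by the symbol alone for 40 of the 41, and the brightest probe set of each of the 40 passed the filter on low values, an intensity of 143. Chaf1a has no such probe set and is not analysed here. By role, 8 genes serve origin licensing, 14 the replication fork, 4 the supply of nucleotides, 4 the entry into S phase, 6 (5 of them measured) the supply of histones and the maintenance of chromatin, and 5 the checkpoint and repair at the fork. Across the arrays 10824 genes were tested in all.

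All cells came from adult Mx1Cre;Ergkd/+;R26Y mice on a mixed 129-B6 background. Each animal thus carried 1 Erg knockdown allele, a Cre recombinase under the interferon-inducible Mx1 promoter and a Rosa26 reporter that makes yellow fluorescent protein (YFP) once Cre has acted. Erg encodes an ETS family transcription factor of stem cells. By the labels, YFP+ LSK cells had regained a wild-type dose of it, and YFP- LSK cells of the same animal had lost about 40%. Mice 278, 279 and 281 gave 1 array of each kind, so there are 3 restored-labelled and 3 knockdown-labelled arrays. The labelled dose of Erg, the action of Cre and the choice of cells by YFP cannot be told apart in this design. The question put to these genes was whether the replication program differs between the 2 populations of an animal.

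Before S phase, the origin recognition complex with Cdc6 and Cdt1 loads the MCM helicase onto origins, a step called licensing. When cyclin E and its kinase drive the cell into S phase, Cdc45 and the GINS complex join the MCM ring, and primase, polymerases, the clamp PCNA with its loader, the flap nuclease and the ligase copy the DNA. The E2F factors turn on most of these genes together late in G1, so their transcripts are widely used as a marker of cycling cells. In the marrow, most long-term stem cells are quiescent, whereas the progenitors that make up most of the LSK gate divide. In bulk RNA of this kind, fewer cycling cells and less transcript per cycling cell cannot be told apart.

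Promoter sequences are shown because E2F control is what these genes are known to share and the choice of genes did not use sequence. RefSeq promoter windows of GRCm38.p6, from 250 bases before to 50 after the start, were on hand for 34 of the 41 genes (40 windows). The letters of an E2F-type element were searched on both strands as TTTCCCGC, TTTCGCGC, TTTGCCGC and TTTGGCGC, and matches may overlap each other. They stood in 15 of the 40 windows (37.5%), against 2.26% of all 32851 windows and 4.07% of the 11308 windows of genes tested. Of the licensing genes, 6 of 7 with a window had a match, of the fork genes 3 of 10, and of the nucleotide supply genes none of 4. Promoters of mitotic genes differed in kind. The letters TTTGAA of the cell cycle homology region, found in 76.7% of 30 windows of mitotic genes and 17.9% of all windows, stood in 4 of the 40 windows here, and the E2F letters in 3 of the 30. A match is a description of these letters and not a measured site. The windows below are the 6 licensing genes with a match, then Hells and Cdca7, chromatin genes with fitted differences on opposite sides that were picked after their values were seen. They are written 5′ to 3′ on the gene's strand with the matched letters in capitals.
Cdc6, chr11:98908002-98908031, plus strand: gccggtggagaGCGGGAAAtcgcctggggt
Cdt1, chr8:122568036-122568064, plus strand: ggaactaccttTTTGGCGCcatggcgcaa
Mcm3, chr1:20820275-20820304, minus strand: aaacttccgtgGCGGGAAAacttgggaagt
Mcm5, chr8:75109349-75109378, plus strand: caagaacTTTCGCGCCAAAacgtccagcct
Mcm6, chr1:128359734-128359763, minus strand: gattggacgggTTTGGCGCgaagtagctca
Mcm7, chr5:138171849-138171878, minus strand: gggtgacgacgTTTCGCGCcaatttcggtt
Hells, chr19:38930917-38930946, plus strand: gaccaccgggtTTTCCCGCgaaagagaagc
Cdca7, chr2:72476137-72476166, plus strand: tgcgtcccggcGCGGGAAAgccggtggccc

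Mcm6 held the most matches of any window of the set, 3 of them, and its 250 bases before the start (chr1:128359706-128359955, minus strand) are printed whole to show their spacing. The matches begin at -110, -106 and -47 from the start, and the first and the second overlap. The same stretch holds the letters CCAAT, the core of an NF-Y element, 2 times when both strands are read.
Mcm6 upstream: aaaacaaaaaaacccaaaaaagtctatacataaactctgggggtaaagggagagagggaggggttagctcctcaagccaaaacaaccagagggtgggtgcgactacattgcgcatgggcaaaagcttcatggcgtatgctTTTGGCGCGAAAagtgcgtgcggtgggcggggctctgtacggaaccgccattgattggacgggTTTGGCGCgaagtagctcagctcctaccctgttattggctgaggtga

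Several facts of the whole series bear on these genes. Array means lay between 1034 and 1075 in intensity, and with 3 arrays a group the precision is low. Erg itself read 2731, 2901 and 2659 in the restored-labelled cells of mice 278, 279 and 281 and 2970, 2754 and 2706 in their knockdown-labelled cells at its brighter probe set, so the labelled reduction was not seen there. The position of its probes on the knockdown allele was not examined, so it is not known whether they can read the reduction. The labelled cell type was checked against its markers: 6 of 7 gate and stem cell genes, among them Kit, Cd34 and Flt3, had a named probe set, and all 6 passed the filter. Their summed intensity was 24905 to 27806 in restored-labelled and 26713 to 29195 in knockdown-labelled cells, and Ly6a, which encodes Sca-1, has no probe set named here. The restored-labelled array of mouse 279 stood apart, with a 3′ over 5′ log2 ratio of 0.71 at the Gapdh and Actb control probe sets against 0.47 to 0.54 on the other 5. Neutrophil transcripts also differed within mice: the 10 markers, all above the filter, summed to 45788, 37070 and 68280 in the restored-labelled and 45705, 73570 and 46685 in the knockdown-labelled cells of mice 278, 279 and 281. B and plasma cell transcripts (9 of 10 markers named, 5 above the filter) summed to 10713 to 12296 in restored-labelled and 16060 to 26634 in knockdown-labelled cells. Of those 5, Ighm, Jchain, Mzb1 and Sdc1 were higher in the knockdown-labelled cells of each mouse. Cd79b was lower in each, with 2709, 2455 and 2632 against 2580, 2321 and 2327. The B cell factor gene Pax5 was listed at 0 on 1 array and lay below the filter on the others. Megakaryocyte markers (5 of 6) summed to 7951 to 10182 and 7178 to 7864, and macrophage markers (6 named, 4 above the filter) to 3504 to 4121 and 2632 to 2977. The part of these cell types and of the 3′ over 5′ ratio in the values below was not tested. Each difference below is the knockdown-labelled less the restored-labelled log2(intensity + 16), fitted by limma with the mouse as a block, and ± gives its standard error.

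No replication gene passed the test for a difference between the populations. None of the 40 passed an adjusted p of 0.05 (limma, Benjamini-Hochberg over all genes), as 0 of 10824 genes did (0%). None reached an unadjusted p below 0.05 either, where 632 genes of the array did, 1.88% of all genes as lower and 3.96% as higher. The smallest p in the set was that of Gins2 (unadjusted 0.135, adjusted p = 0.771, limma). The fitted differences ran from -0.25 for Pole, equal to a level 16.1% lower, to 0.14 for Ccne1, equal to one 10.3% higher. For 30 of the 40 genes the difference was smaller than its SD over the 3 mice. That count was not taken over all genes, so it does not set these genes apart. The 95% interval of the fit lay within a 1.5-fold change on either side for 36 of the 40, against 8111 of 10824 genes. Among all genes within the signal range of the 40 it was 7103 of 8772. Within the interquartile range of their signal it was 3469 of 3718, so the 40 were not unusually tight for their signal. The 4 exceptions among the 40 were Mcm10, Pole, Chaf1b and Tyms.

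Lower values were more frequent than higher ones. A fitted difference below 0 was found for 28 of the 40 genes, where 50.0% of all genes had one, and the median of the 40 was -0.062, against -0.00015 over all genes. With each array centred on its median, 36 of the 40 and 75.0% of all genes were lower, since this moved the median of all genes to -0.11. The median of the 40 then stood at -0.17, and 28 of them were below the median of all genes. Centring moves the difference of every gene by the same amount, so this 28 repeats the count before centring by construction. Only Hells, Slbp, Ccne1 and Tyms stayed above 0 under that centring. With quantile normalization 30 of the 40 and 57.2% of all genes were lower, and 24 of the 40 were below the median of all genes. The count of 28 differed by mouse. In mouse 279, 32 of the 40 were lower, with a median of -0.20, and in mouse 278 it was 26 with a median of -0.031. In mouse 281 only 7 were lower and the median was 0.059. Of all 10824 genes, 4475, 5977 and 4555 were lower in mice 278, 279 and 281, with medians of 0.031, -0.044 and 0.032. For 26 of the 40 genes mouse 279 was lower and mouse 281 higher. All 3 mice were lower for 5 genes (12.4% of all genes) and higher for 6 (19.8% of all genes), shares near those of the 40. Without mouse 279 the count of lower genes was 16 of 40, beside 39.8% of all genes. It was 15 of 40, beside 40.8% of all genes, in a fit of 5 arrays that dropped the mouse term and, of the 6 arrays, only the restored-labelled one of mouse 279. Without mouse 281 it was 31 of 40, beside 50.7% of all genes.

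**Figure D1:**
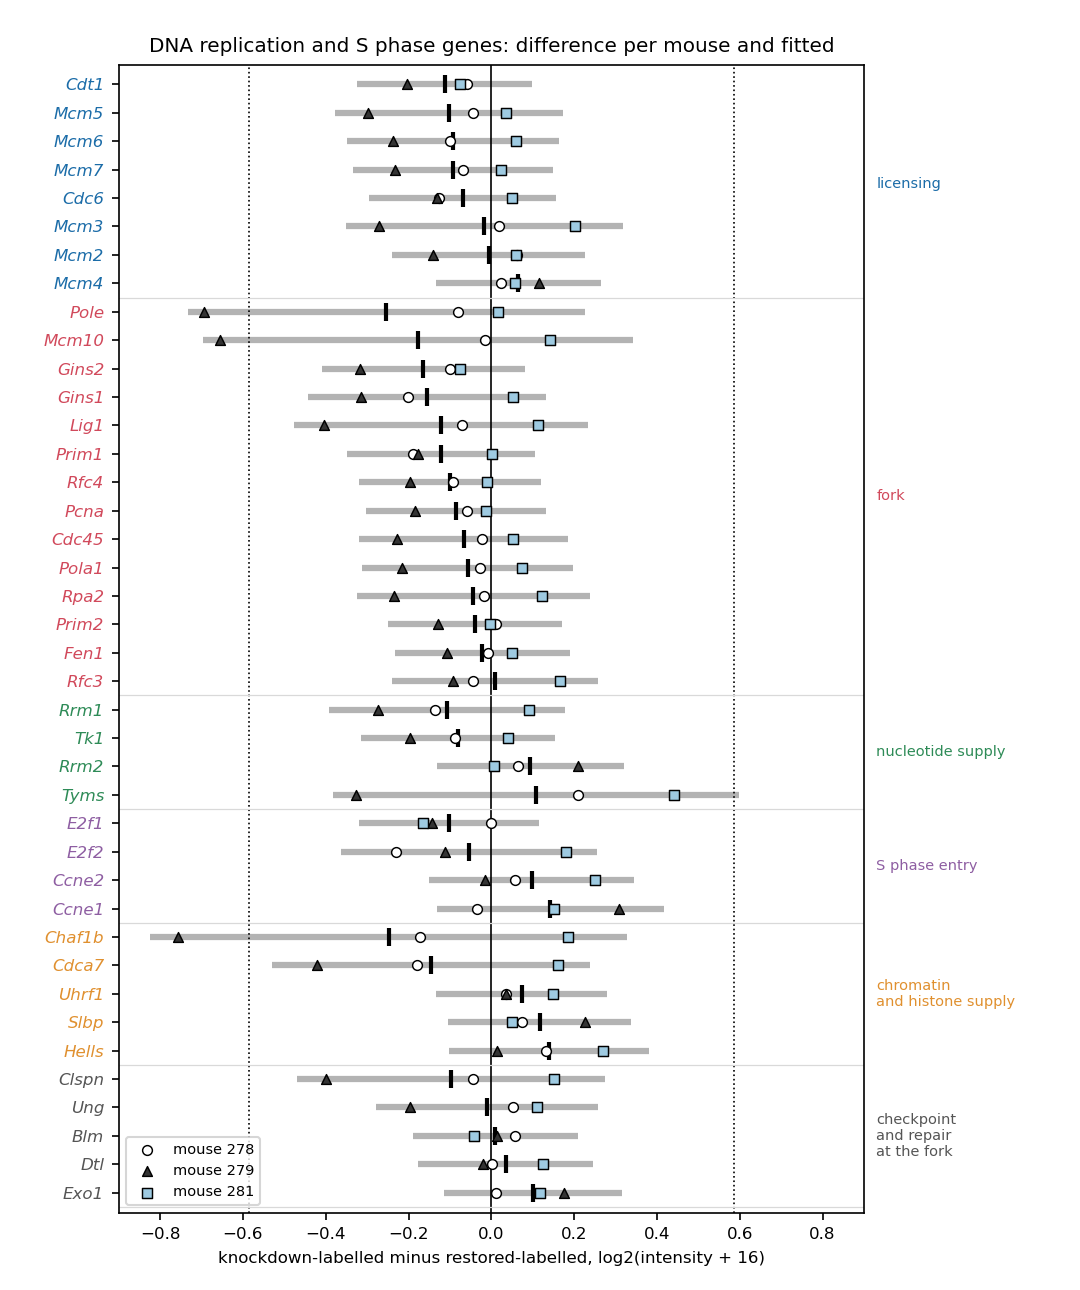
Difference of each of the 40 measured genes between knockdown-labelled and restored-labelled cells (horizontal axis, log2 of intensity + 16, negative where the knockdown-labelled cells were lower), ordered by role (vertical axis). Symbols are the 3 mice, black ticks the fitted differences, grey bars their 95% intervals and dotted lines a 1.5-fold change. Mouse 279 lies below 0 for 32 genes and mouse 281 for 7, and every grey bar crosses 0.

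Licensing genes were mostly lower by small amounts, and none passed the test. Of the 8, 7 had a fitted difference below 0, with a median of -0.081 that was made up of -0.051, -0.22 and 0.053 in mice 278, 279 and 281. Cdt1, which brings the helicase to the origin, read 6403, 8209 and 6732 in restored-labelled and 6148, 7126 and 6383 in knockdown-labelled cells. It was lower in each of the 3 mice, but the groups overlapped, and the restored-labelled array of mouse 279 was the highest of the 6. Its difference was -0.11 ± 0.076 (adjusted p = 0.775, limma), and -0.0058 with the 5 arrays. Mcm7, a helicase subunit, read 7569, 8964 and 7142 against 7215, 7632 and 7258, a difference of -0.092 ± 0.087 (adjusted p = 0.802, limma). Apart from 8964, its 5 values lay close together, and with those 5 arrays the difference was 0.0027.

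Mcm2, another subunit of the ring, gave one of the smallest differences of the set. It read 6504, 7277 and 6134 in restored-labelled and 6786, 6603 and 6390 in knockdown-labelled cells, a difference of -0.0067 ± 0.084. Mcm3 was alike, with -0.017 ± 0.12. Mcm5 (-0.10 ± 0.099), Mcm6 (-0.093 ± 0.092) and the loading factor gene Cdc6 (-0.070 ± 0.081) were lower in mice 278 and 279 and higher in mouse 281. Mcm4, whose product belongs to the same hexamer, was the single gene of the role above 0, at 0.065 ± 0.072 and above 0 in each mouse, though -0.042 with centred arrays. Of the 8 licensing genes, 7 were highest on the restored-labelled array of mouse 279, where 38.9% of all genes were. Without mouse 279, 5 of the 8 lay below 0, with a median of -0.013 (all genes 0.029), and with the 5 arrays 2 of 8 did. Without mouse 281, 7 did, with a median of -0.13 (all genes -0.0045).

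Fork genes were also mostly lower, and none passed the test. Of the 14, 13 had a fitted difference below 0, with a median of -0.093 and medians of -0.053, -0.22 and 0.050 in the 3 mice. Gins2, a subunit of the GINS complex that activates the helicase, read 3182, 3263 and 3014 in the restored-labelled cells of mice 278, 279 and 281 and 2968, 2617 and 2858 in the knockdown-labelled cells. Its groups did not overlap, and its difference was -0.16 ± 0.088 (adjusted p = 0.771, limma). Without mouse 279 it was -0.088 and with the 5 arrays -0.14. The dimmer probe set of Gins2 read 2631, 2495 and 2306 against 2360, 2015 and 2429. There the groups overlapped, at a difference of -0.13 with mouse 281 at 0.074. Gins1, of the same complex, read 4203, 4151 and 3579 against 3651, 3336 and 3709, a difference of -0.15 ± 0.10 with mouse 281 on the other side.

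The sliding clamp gene Pcna read 10038, 10665 and 9871 in restored-labelled and 9627, 9383 and 9778 in knockdown-labelled cells. Those groups did not overlap either, at a difference of -0.086 ± 0.078 (adjusted p = 0.797, limma), and the same held for the clamp loader gene Rfc4, at -0.10 ± 0.079. At the brightest probe set, Gins2, Pcna and Rfc4 were the only 3 of the 40 genes whose knockdown-labelled arrays all lay below the restored-labelled ones. Of all genes, 5.08% did. They kept a difference below 0 without mouse 279, at -0.037 for Pcna and -0.051 for Rfc4.

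The largest differences of the role came with the widest intervals. Pole, the catalytic subunit of the leading strand polymerase, read 4000, 5823 and 3974 in restored-labelled and 3782, 3591 and 4015 in knockdown-labelled cells. Its difference of -0.25 ± 0.17 rested on the single value 5823: mouse 279 gave -0.69, and mice 278 and 281 gave -0.080 and 0.015. Mcm10, which helps to assemble the fork, repeated this, with 1803, 2822 and 1792 against 1782, 1784 and 1980. With the 5 arrays Pole stood at -0.072 and Mcm10 at 0.039. The array values of Pole and Mcm10, and those of Chaf1b below, are given because they stood out once seen.

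The other fork genes lay between -0.12 and 0.0094. The primase genes Prim1 and Prim2 gave -0.12 ± 0.082 and -0.040 ± 0.076, and the polymerase alpha gene Pola1 gave -0.057 ± 0.091. The ligase gene Lig1 gave -0.12 ± 0.13 and the flap nuclease gene Fen1 gave -0.022 ± 0.076. Cdc45, the helicase partner, stood at -0.067 ± 0.091 and Rpa2, of the single-strand binding protein, at -0.044 ± 0.10. Rfc3, another clamp loader subunit, was the single fork gene above 0, at 0.0094 ± 0.089. Without mouse 279, 6 of the 14 fork genes lay below 0 and the median was 0.0091, where that of all genes was 0.029. With the 5 arrays 8 did, at a median of -0.021 (all genes 0.024). Without mouse 281 all 14 did, at a median of -0.14 (all genes -0.0045).

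Nucleotide supply genes had no common side. Ribonucleotide reductase, which makes deoxyribonucleotides, has a large and a small subunit. The large subunit gene Rrm1 read 8046, 9367 and 7472 in restored-labelled and 7320, 7742 and 7959 in knockdown-labelled cells, at -0.11 ± 0.10 with mouse 281 above 0. The small subunit gene Rrm2 read 7308, 6852 and 7372 against 7644, 7930 and 7406. Its groups did not overlap, with the knockdown-labelled arrays above, at 0.094 ± 0.081 (adjusted p = 0.793, limma). Rrm2 was also 1 of 3 genes of the set lowest on the restored-labelled array of mouse 279, with Slbp and Exo1. With each array centred on its median Rrm2 stood at -0.013, so its side depends on the scaling. With the probe sets of a gene averaged, Rrm1 stood at -0.0020 and Rrm2 at -0.014, and the difference between the 2 genes was not tested.

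Tk1, the thymidine salvage kinase, was at -0.081 ± 0.084. Tyms, which makes thymidylate, read 439, 538 and 438 in restored-labelled and 510, 425 and 601 in knockdown-labelled cells. It was higher in mice 278 and 281 and lower in mouse 279, and its interval, -0.38 to 0.60, was among the widest of the set. Without mouse 279 its difference was 0.33 at an unadjusted p of 0.0457 (adjusted p = 0.800, limma). The median of the role was 0.0064, with -0.011, -0.23 and 0.065 in the 3 mice, and -0.10 without mouse 281. It depended on Tyms, which was dim. With only the upper 30% of probe sets kept, Tyms dropped out and the median of the other 3 genes was -0.081. Licensing and fork genes stood at -0.081 and -0.093 under that filter.

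Among the genes of S phase entry, 2 were lower and 2 higher, with a median of 0.022. Ccne1, which encodes cyclin E1, read 653, 1196 and 972 in the restored-labelled and 638, 1485 and 1081 in the knockdown-labelled cells of mice 278, 279 and 281. Both arrays of mouse 278 were low, both of mouse 279 high and both of mouse 281 between them, and its further probe set gave the same order. Its SD over the 6 arrays, 0.48 on the log2 scale, was the largest of the 40, while its difference between populations was 0.14 ± 0.099 (adjusted p = 0.776, limma). In a test of the 3 mice against each other, added after the data were seen, Ccne1 gave an unadjusted p of 0.00269 and an adjusted p = 0.687 (limma). It was the only gene of the set below 0.05 unadjusted there, where 5.37% of all genes were, and none of the 10824 passed after adjustment.

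The partner gene Ccne2 did not follow that order and differed by 0.098 ± 0.089. E2f1, the activator of the S phase program, read 1228, 1364 and 1169 in restored-labelled and 1227, 1234 and 1042 in knockdown-labelled cells. The groups overlapped and the difference was -0.10 ± 0.078 (adjusted p = 0.784, limma), lower in each of the 3 mice though by 0.0014 in mouse 278. E2f2 gave -0.054 ± 0.11 with mouse 281 above 0.

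Chromatin and histone supply genes held 3 that were higher in each mouse at their brightest probe set, Hells, Slbp and Uhrf1, none of which passed the test. Hells, a chromatin remodeller needed for DNA methylation, read 2768, 2795 and 2633 in restored-labelled and 3035, 2821 and 3178 in knockdown-labelled cells, at 0.14 ± 0.087 (adjusted p = 0.771, limma). Slbp, which binds the ends of histone messages, read 5541, 4952 and 5542 against 5838, 5794 and 5738, at 0.12 ± 0.079. Uhrf1, which guides maintenance methylation to new DNA, gave 0.073 ± 0.074, and -0.033 with centred arrays. In each of these 3 genes the knockdown-labelled arrays all lay above the restored-labelled ones. With Rrm2 that made 4 of the 40 genes, which 10.1% of all genes did, a share near the background. Without mouse 279 these 3 genes kept a difference above 0, at 0.20, 0.062 and 0.093, and Hells had 0.16 with the 5 arrays. The summed B and plasma cell markers were also higher in the knockdown-labelled cells of each mouse, though Cd79b among them was lower. The part of these markers in the values of Hells, Slbp and Uhrf1 was not tested.

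The others of that role lay on the other side. Chaf1b, of the histone chaperone that follows the fork, read 2807, 4115 and 2666 against 2490, 2427 and 3033, a difference of -0.25 ± 0.21 that was 0.0064 without mouse 279. Cdca7, a partner of Hells, gave -0.15 ± 0.14. At the brightest probe sets the median of the role was 0.073, and it was above 0 in each mouse, at 0.036, 0.013 and 0.16. With centred arrays it was -0.033, and 3 of the 5 genes were lower. Over the 10 probe sets of the role above the filter, 6 were lower in mouse 279. Their median was -0.31 in that mouse and 0.14 and 0.23 in mice 278 and 281.

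Checkpoint and repair genes had a median near 0, at 0.0096, with 2 lower and 3 higher. Clspn, the adaptor of the replication checkpoint, read 2872, 3647 and 2771 in restored-labelled and 2784, 2762 and 3077 in knockdown-labelled cells, at -0.098 ± 0.13, and 0.025 with the 5 arrays. The nuclease gene Exo1 read 1754, 1385 and 1524 against 1767, 1566 and 1654, at 0.10 ± 0.077 (adjusted p = 0.784, limma), higher in each mouse with overlapping groups. With centred arrays it stood at -0.0060. Dtl, which targets Cdt1 for destruction in S phase, the helicase gene Blm and the uracil glycosylase gene Ung gave 0.035 ± 0.076, 0.0096 ± 0.072 and -0.011 ± 0.096.

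**Figure D2:**
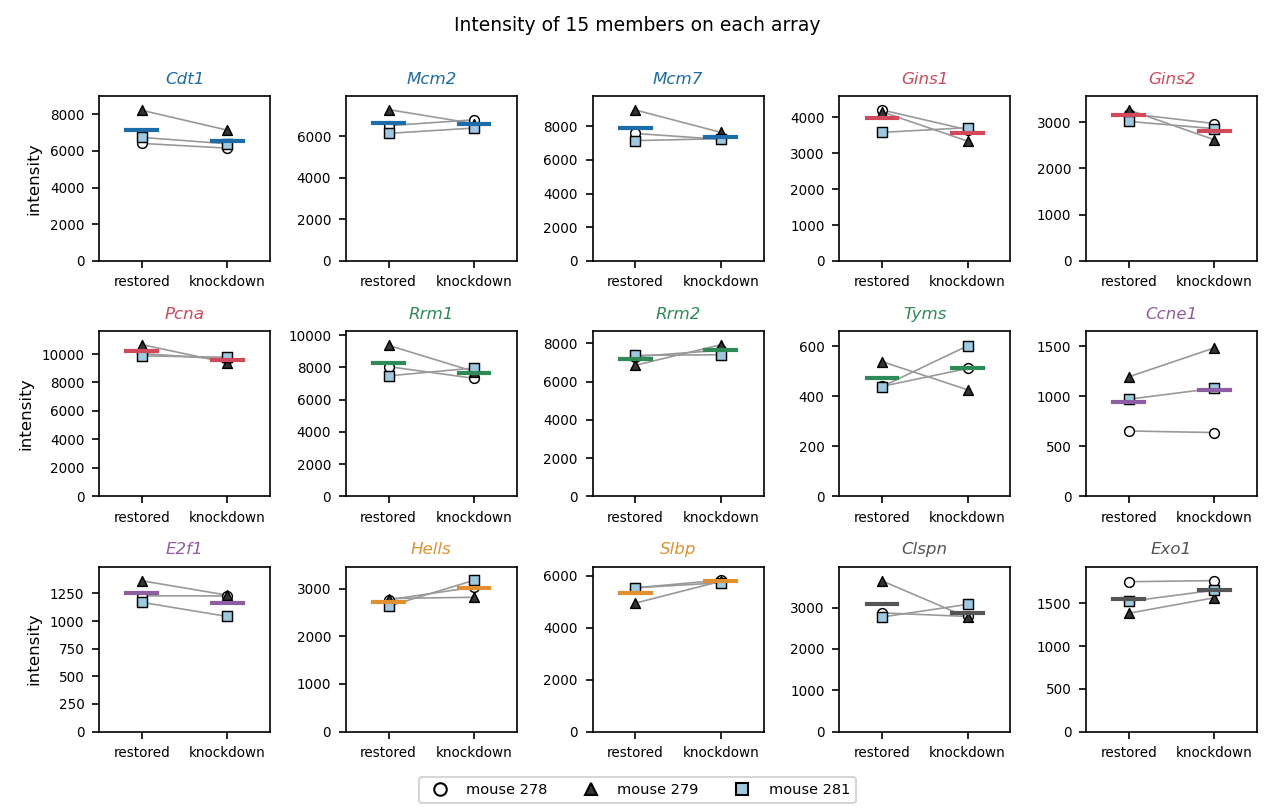
Intensity (vertical axis, from 0) of 15 genes in restored-labelled and knockdown-labelled cells. Symbols are the 3 mice with a line joining the arrays of 1 animal, and coloured bars are the group means over 3 arrays. Cdt1, Mcm7 and Clspn are highest at the restored-labelled array of mouse 279, and Ccne1 separates the mice.

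Set side by side, licensing and fork genes were nearly the same within every mouse. The median of licensing minus that of fork genes was 0.0013, 0.0045 and 0.0027 in mice 278, 279 and 281. Nucleotide supply genes stood 0.041 above fork genes, 0.013 below and 0.016 above, so without a common side. Chromatin genes stood above fork genes by 0.089, 0.24 and 0.11, and checkpoint genes by 0.063, 0.20 and 0.067. S phase entry genes also stood above fork genes in each mouse, by 0.035, 0.16 and 0.12. All these values use the brightest probe sets. Over all probe sets above the filter, the chromatin median in mouse 279 was -0.31, below the -0.22 of fork genes. In mice 278 and 281 it was 0.14 and 0.23, above the -0.063 and 0.073 of fork genes. These are descriptions of small groups of 4 to 14 genes, and their difference was not tested.

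The levels differed between single arrays of 1 group. On the restored-labelled array of mouse 279, 27 of the 40 genes had their highest value, and the median gene lay 0.19 above the mean of the other 2 restored-labelled arrays, against 0.071 over all genes. This gap within 1 group was larger than the fitted difference between groups. It was 0.27 for licensing, 0.16 for fork, 0.20 for nucleotide supply and 0.27 for S phase entry genes, but 0.050 for chromatin and 0.039 for checkpoint genes. Mcm10, Chaf1b, Ccne1 and Pole stood out most, at 0.65, 0.59, 0.58 and 0.54 above, and Exo1 was the farthest below, at -0.24. On the knockdown-labelled array of mouse 279, the median gene lay -0.044 from the other 2 of its group. The restored-labelled array of mouse 281, the animal in which most differences lay above 0, was the lowest of the 6 for 13 of the 40 genes (17.6% of all genes), and the knockdown-labelled array of mouse 279 for 12 (17.7% of all genes). In mouse 278, whose arrays are others, 26 of the 40 genes and 13 of the 14 fork genes were lower as well, beside 4475 of 10824 genes. Which array the lower values come from was not tested. Within mice, the summed neutrophil markers were higher in the knockdown-labelled cells of mouse 279 and lower in those of mouse 281, and the replication genes had the opposite signs there, while mouse 278 had nearly equal sums. Whether that bears on the replication genes was not tested.

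**Figure D3:**
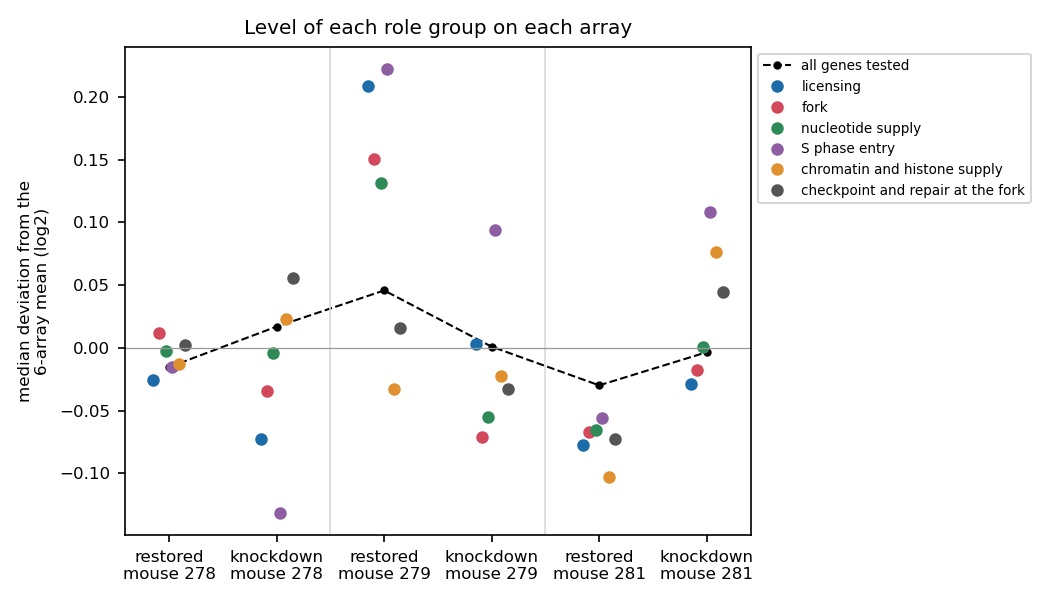
Median deviation of each role group from its genes' mean over 6 arrays (vertical axis, log2) on each of the 6 arrays (horizontal axis, paired by mouse). The dashed line is the median of all genes tested. Licensing, fork, nucleotide supply and S phase entry genes lie between 0.13 and 0.22 on the restored-labelled array of mouse 279, where all genes lie at 0.046.

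Most of the 40 genes could be read at more than 1 probe set. The 40 genes had 94 named probe sets, of which 83 passed the filter. Beyond the brightest there were 43, and 31 of them lay on the same side as the brightest. Of the 21 probe sets of licensing genes 19 were lower, with a median of -0.093. The 4 probe sets of Mcm7 gave -0.092, -0.13, -0.099 and -0.15, and the 5 of Mcm3 lay between -0.17 and -0.017. The dimmer probe set of Mcm2 gave -0.24, with -0.69 in mouse 279, where the brighter gave -0.14. Fork genes followed with 19 of 23 lower, and Prim1 gave -0.12 and -0.10.

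In the other roles the probe sets of a gene often disagreed. Rrm2 gave 0.094 and 0.072 at its brighter probe sets but -0.21 at the third, and Rrm1 gave -0.11, -0.021 and 0.12. Slbp gave 0.12 at its brightest and -0.078 at the next, which read -0.68 in mouse 279, and 0.019 with its probe sets averaged. Tyms gave 0.11, 0.30 and -0.20, and Cdca7 -0.15 and 0.31. Clspn gave -0.098 and 0.15, Exo1 gave 0.10, -0.11 and 0.13, and those of Dtl ran from -0.17 to 0.19. Hells was above 0 at each of its 3, with 0.14, 0.057 and 0.52, although the dimmer ones were below 0 in mouse 279, at -0.36 and -0.26. Uhrf1 was above 0 at both of its probe sets, with 0.073 and 0.22. Of the 83 probe sets, 63 were lower in mouse 279, 53 in mouse 278 and 16 in mouse 281, so the contrast between animals was also seen over all probe sets.

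**Figure D4:**
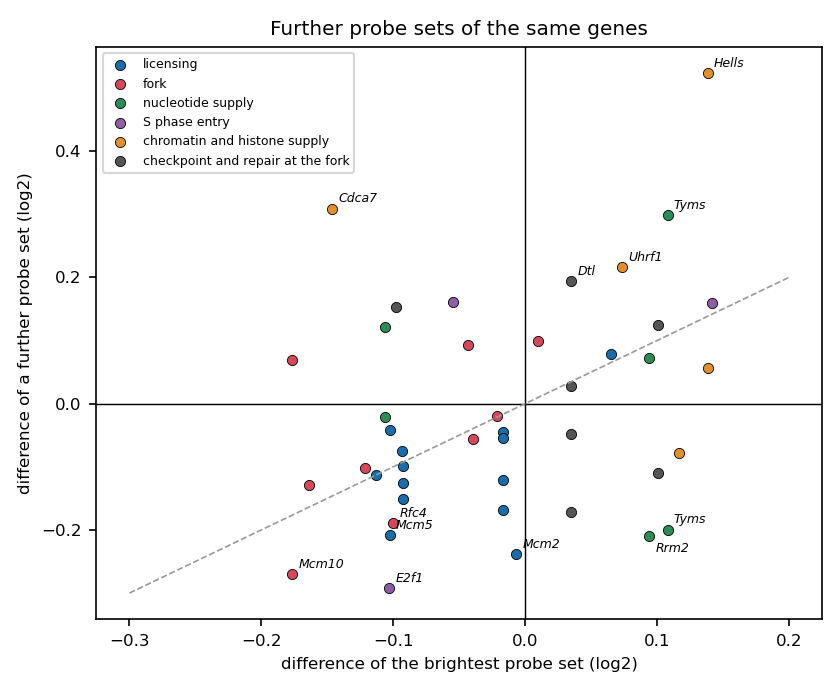
Difference of each further probe set above the filter (vertical axis, log2) against that of the brightest probe set of its gene (horizontal axis, log2), coloured by role, with the dashed line of equality. Of 43 points, 31 lie in the lower left or upper right, and the licensing genes cluster below 0 apart from Mcm4.

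Replication genes outside the set gave a flatter picture. Of 53 named for this purpose 50 were tested, and 28 were lower, 12 of 20 fork genes and 7 of 12 nucleotide supply genes among them, with a median of -0.022. None passed, and 1 reached an unadjusted p below 0.05. That gene was Dctd, the dCMP deaminase gene, which read 1327, 824 and 947 in restored-labelled and 1638, 1193 and 1206 in knockdown-labelled cells. It was higher in each mouse with overlapping groups, at 0.39 ± 0.084 (adjusted p = 0.771, limma). The topoisomerase gene Top1 followed with 0.23 ± 0.084. On the other side were the clamp loader gene Rfc5, at -0.22 ± 0.095, and the GINS gene Gins3, at -0.22 ± 0.12. Their medians by mouse were -0.0013, -0.15 and 0.065, the same order of animals as in the 40 genes.

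On the scale used here, the factors around E2F1 leaned the other way. Of 11 genes of the E2F, DP and retinoblastoma families outside the set, 8 were higher, beside 5408 of all 10824 genes. Their median was 0.080, and none passed. Centring each array moved the median of all genes to -0.11, further than 0.080, so the side of this median depends on the scaling. E2f5, a repressive family member, read 738, 624 and 647 in restored-labelled and 951, 839 and 766 in knockdown-labelled cells without overlap, at 0.34 ± 0.078 (adjusted p = 0.771, limma). The partner gene Tfdp2 did not overlap either, at 0.14 ± 0.075. The mitosis genes, which mark the cells that have passed S phase, had 26 of 35 lower with medians of -0.075, -0.22 and 0.052 in the 3 mice. Dlgap5 and Kif2c, which encode a spindle protein and a kinesin, had the smallest p, at -0.37 ± 0.086 and -0.25 ± 0.070 (adjusted p = 0.771 each, limma), lower in each mouse. The 40 replication genes, at -0.031, -0.20 and 0.059, had the same side in each animal on the same arrays.

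Genes with and without the E2F letters had like medians. The 15 measured genes with an E2F match had 11 lower and a median of -0.070, and the 18 without one had 13 lower and a median of -0.055. Over all genes tested, the 434 with a match had 233 lower (53.7%) and a median of -0.016, against 50.1% and -0.00029 for the 8407 without. By mouse, the medians of the 434 were 0.012, -0.11 and 0.050 and those of the 8407 were 0.031, -0.042 and 0.031. The median of the genes with a match was thus below that of the genes without in mice 278 and 279. It was above it in mouse 281, and only in mouse 279 was it below 0.

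**Figure D5:**
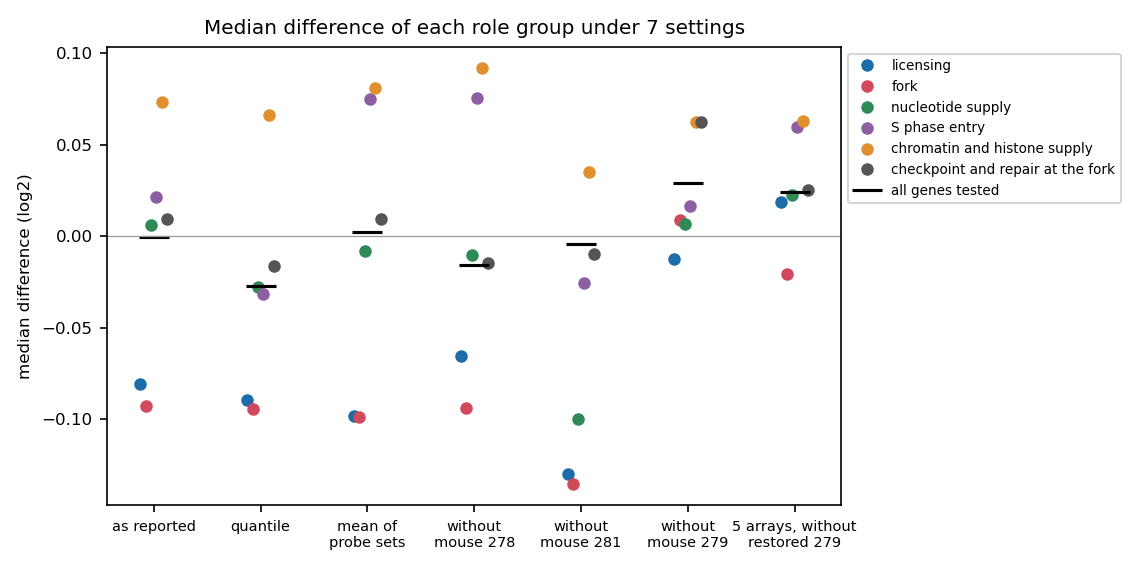
Median difference of each role group (vertical axis, log2) under 7 settings (horizontal axis), with black bars for all genes tested. Licensing and fork genes lie at -0.081 and -0.093 as reported, and at -0.013 and 0.0091 without mouse 279.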

How the data were processed

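RNA was extracted with RNAeasy columns and amplified and labelled with NuGEN Ovation V2, per the labels' protocols, then read on Affymetrix 3′ expression arrays. The deposited values are linear intensities per probe set, and the authors' summary and normalization methods are not given in the sources used here. Of 45101 probe sets, 64 controls were left out. An older probe table gives 34945 of them a single symbol, several to 932 and none to 9160, and no symbol changed through the GRCm38.p6 gene table (34741 matched). Intensities became log2(value + 16), which understates changes of dim genes. Probe sets at or above the median (intensity 143) were kept, and the brightest represented its gene. Limma 3.58.1 in R 4.3.3 was fitted to 10824 genes with a fixed block for the mouse, because the labels pair both populations by animal, and p-values were adjusted by Benjamini-Hochberg. The fit was tested on simulated data. Deviations of the paired arrays correlated at 0.44, -0.17 and -0.29 in mice 278, 279 and 281. Across mice, knockdown-labelled 281 with restored-labelled 279 gave 0.41, and knockdown-labelled 279 with restored-labelled 281 gave 0.34. The remaining pairs across mice lay between -0.27 and -0.060. The opposite sides of mice 279 and 281 rest on these same arrays, which resembled the other animal more than their own partner. Genes, roles and lists were chosen with earlier results of these data known. The naming rule gave values on every array for the 2 genes of each role with the smallest p and for E2f1, Pcna, Mcm2, Rrm2 and Tyms. From the other lists it named the 2 with the smallest p, in each direction for replication. Promoter sequences are from RefSeq (GRCm38.p6). Alternatives covered the block, the scaling (quantile, centring), the added value (1, 64), the filter (none, upper 30%), probe sets averaged, trend and robust eBayes, array weights, each mouse left out, and the fit of 5 arrays.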

Additional observations from a re-analysis of the deposited data

How the results depend on the processing

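No gene of the array passed an adjusted p of 0.05 in any of the alternative fits (limma), while 258 to 1083 genes reached an unadjusted p below 0.05. With no replicate block, in place of the paired fit, 28 of 40 genes were again lower, 0 reached an unadjusted p below 0.05, and 634 genes of the array did, against 632 in the paired fit. The count of lower genes was 25 to 36 under the alternatives that kept all arrays, 15 with the 5 arrays, and 16 (without mouse 279) to 31 (without mouse 281) when a mouse was left out. Of the 28 lower genes, 12 were higher without mouse 279 and 13 with the 5 arrays. With centred arrays 1 of the 40 genes reached an unadjusted p below 0.05, Gins2 (limma, adjusted p = 0.520), beside 971 of 10824 genes. Without mouse 279 it was 1 of the 40, Tyms, beside 653 of 10824 genes. Without mouse 278 or mouse 281 it was 0. Over all 40 genes, 8 turned sign with centred arrays, 5 with averaged probe sets and 4 with array weights. Among the 15 genes given on every array by the naming rule, signs turned with centred arrays for Rrm2 (-0.013) and Exo1 (-0.0060), with averaged probe sets for Rrm2 (-0.014) and Clspn (0.028), and with array weights for Mcm2 (0.011). With the 5 arrays they turned for Mcm7 (0.0027), Clspn (0.025) and Mcm2 (0.061). Over the fits without 1 mouse, Clspn ran from -0.22 to 0.053, Mcm2 from -0.041 to 0.060 and Tyms from -0.059 to 0.33. In the test between mice the count of 1 gene became 2 with trend and robust eBayes. The cause of these shifts was not tested. The low number of arrays limits what could be seen.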

Other observations

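Some erythroid genes shared the order of the mice seen for Ccne1, a comparison chosen after the values were seen. Ccne1 had log2 means of 9.37, 10.40 and 10.02 in mice 278, 279 and 281. Of the 5 erythroid markers above the filter, 4 had the same order. Epor, the erythropoietin receptor gene, had 7.89, 9.42 and 8.62 (adjusted p = 0.532, limma test between mice), and Klf1, the erythroid Kruppel-like factor gene, had 9.78, 11.62 and 10.74 (adjusted p = 0.674). The globin gene Hbb-b2 had 8.75, 11.12 and 9.68 (adjusted p = 0.190), and the carbonic anhydrase gene Car1 had 11.93, 12.79 and 12.51 (adjusted p = 0.800). The globin gene Hba-a2 went the other way, with 12.24, 11.98 and 12.23 (adjusted p = 0.958). None passed the adjustment, and the part of erythroid progenitors in the Ccne1 values was not tested.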
